A study of Rattus norvegicus with 6 samples.

Results

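Interferon response and antigen presentation genes were read in liver RNA of 3-week-old Sprague-Dawley rat pups. The 36 genes were given by name for their roles, and 35 of them had a probe set of their own on the Affymetrix rat array, out of 14217 genes with a probe set. Gbp5 had none in the annotation used. Oas1b lay below the brightness limit of a mean log2 signal of 5.83, under which the dimmest 40% of probe sets were left out, so 34 were tested among 10372 genes. The pups were offspring of dams fed standard chow (control, 3 arrays) or a high fat diet (3 arrays), and the comparison between these groups is that of maternal diet. Each array is a liver sample, and the labels name neither litter nor sex, so every p-value rests on the spread among the livers sampled. All dams and pups were of the same strain, and no other agent or allele is named. Values are log2 signal of a probe set, and a difference of 1 is a doubling of signal.

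Interferons are secreted proteins that signal through paired receptor chains on nearly every cell. Type I interferons act through Ifnar1 and Ifnar2 and a factor that holds Stat2 and Irf9 and binds the interferon-stimulated response element in front of antiviral genes. Interferon gamma acts through Ifngr1 and Ifngr2 on gamma-activated sites, and raises the immunoproteasome, the peptide transporter and the MHC molecules that show peptides to T cells. In liver, both hepatocytes and resident macrophages can carry out this response.

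Promoters of several of these genes carry the core letters of the response element. They are shown here because the same letters stand before genes of wide and of narrow span over the arrays. Of the narrow genes, Tap2 (0.35 log2 units) and Psmb10 (0.42) carry the letters but are not shown. B2m is shown, and spanned 0.20 in the probe set used and 0.85 in a second. RefSeq promoters (GRCr8, 250 bases before to 50 after the gene's start) were matched for 29 of the 36 genes, all but Ddx58, Dhx58, Mx2, Ifit1, Ifit2, Isg15 and Usp18. The letters GAAANNGAAA, on either strand, were present in 18 of the 29 (62.1%), against 3.92% of all 33469 promoters of the same length. The letters TTCNNNGAA of the gamma-activated site were in 8 (27.6%), against 8.87% of all, and in Bst2 the 2 motifs overlap. In the windows below the match is in capitals (as its reverse complement where it lies on the other strand) and each window reads toward the gene's start.
Irf7 (chr1:205800063-205800112, minus strand): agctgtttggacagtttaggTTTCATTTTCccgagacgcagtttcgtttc
Oas1a (chr12:41330405-41330460, plus strand): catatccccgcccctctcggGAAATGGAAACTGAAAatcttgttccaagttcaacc
Ifit3 (chr1:241527262-241527311, plus strand): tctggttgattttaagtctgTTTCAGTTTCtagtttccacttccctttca
Eif2ak2 (chr6:21941118-21941153, plus strand): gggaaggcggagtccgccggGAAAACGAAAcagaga
Gbp2 (chr2:234005676-234005725, plus strand): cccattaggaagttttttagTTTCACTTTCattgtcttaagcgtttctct
Tap1 (chr20:4668635-4668684, minus strand): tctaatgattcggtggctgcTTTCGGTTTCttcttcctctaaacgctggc
Rsad2 (chr6:48788238-48788287, minus strand): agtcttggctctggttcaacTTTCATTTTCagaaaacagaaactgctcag
Bst2 (chr16:18255063-18255118, minus strand): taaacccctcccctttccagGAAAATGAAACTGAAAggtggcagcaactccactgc
B2m (chr3:129549160-129549209, plus strand): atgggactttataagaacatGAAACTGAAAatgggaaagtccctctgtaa
A match is a description of the sequence and not a bound site. By role, the response element letters were in 7 of 9 antiviral effector promoters, 6 of 8 of antigen processing, 3 of 3 of the Gbp2, Gbp5 and Cxcl10 group, and 1 of 6 of the transcription factors. Tap1 and Psmb9 start 457 bases apart on opposite strands, so the Tap1 match also lies between the starts of both genes.

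No member passed the test of maternal diet, and for most members the diet means differed by less than the pups within either diet did. At a limma adjusted p under 0.05, 0 of the 34 members tested were called, against 4 genes or 0.0386% of all genes. A looser list, of genes 1.5-fold or more apart with unadjusted p under 0.05, held 2 members, Stat2 and Ifit1, both lower in high fat pups; the rule calls 6.69% of all genes, and 3.36% as lower. In 2 members, Stat2 and Irf3, the high fat arrays did not overlap the controls, both lower, where 20.8% of all genes do not overlap and 11.6% do so as lower. Of the 34, 24 had a higher mean and 10 a lower mean in high fat pups, with a median log2 change of 0.33; over all genes 46.9% had a higher mean and the median was -0.02. That balance depended on which array was left out. There were 17 higher and 17 lower (median -0.02) without control replicate 3, and 18 higher and 16 lower (median 0.02) without high fat replicate 3. Without control replicate 1, control replicate 2 or high fat replicate 1 there were 25 higher and 9 lower. Without high fat replicate 2 there were 23 higher and 11 lower.

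The spread within a diet was wide in these genes. The SD within a diet, pooled over both diets, had a median of 0.57 log2 units over the 34 members and of 0.22 over all genes. It lay in the top 10% of all genes, above 0.50, for 22 members (64.7%). For 31 members (91.2%) the difference between the diet means was smaller than the range among controls and smaller than the range among high fat pups, against 62.6% of all genes. The signal spanned over 2 log2 units across the 6 arrays in 10 members (29.4%), compared with 3.90% of all genes.

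**Figure D1:**
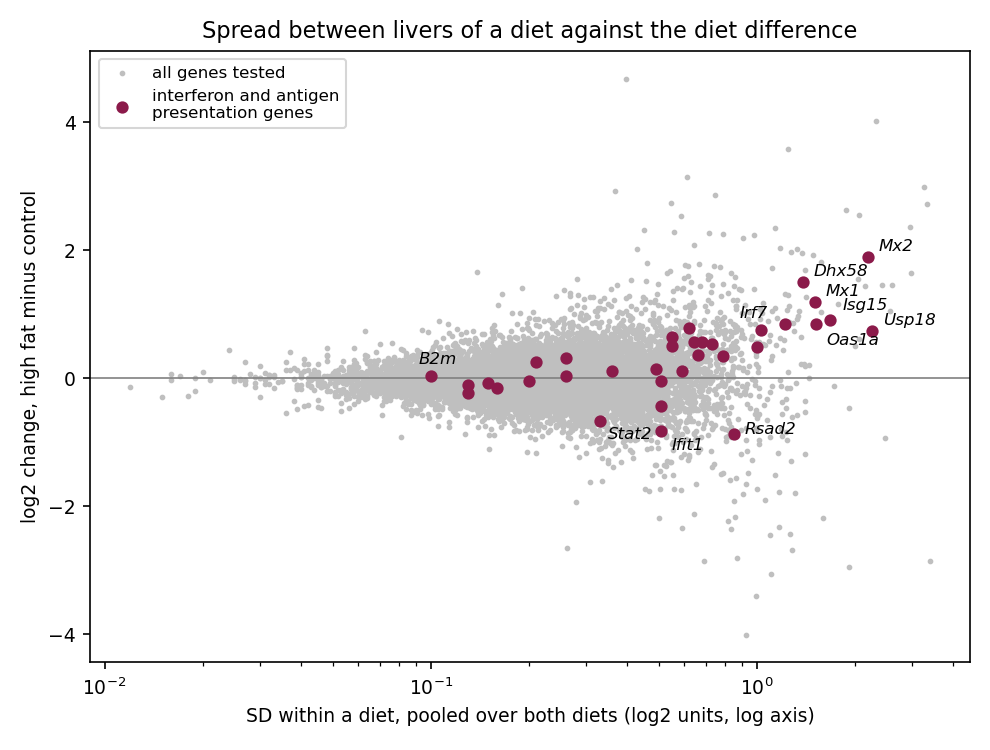
Each grey point is a gene tested, with its SD within a diet on the x axis (log axis, log2 units) and its log2 change, high fat minus control, on the y axis; the 34 members tested are dark red. Mx2 and Usp18 lie far right, B2m lies toward the left, and Stat2 and Ifit1 lie below 0.

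The order of the arrays was shared by most members. Among the 3 controls, replicate 2 was the highest in 27 of 34 members and replicate 3 the lowest in 28, where over all genes these shares were 33.7% and 35.8%. Among the 3 high fat pups, replicate 3 was the highest in 27 and replicate 2 the lowest in 25, against 32.1% and 35.8% of all genes. Over all 6 arrays, high fat replicate 3 was the highest in 20 members and control replicate 3 the lowest in 19. These are counts over genes of the same 6 arrays, and genes are not independent of each other.

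**Figure D2:**
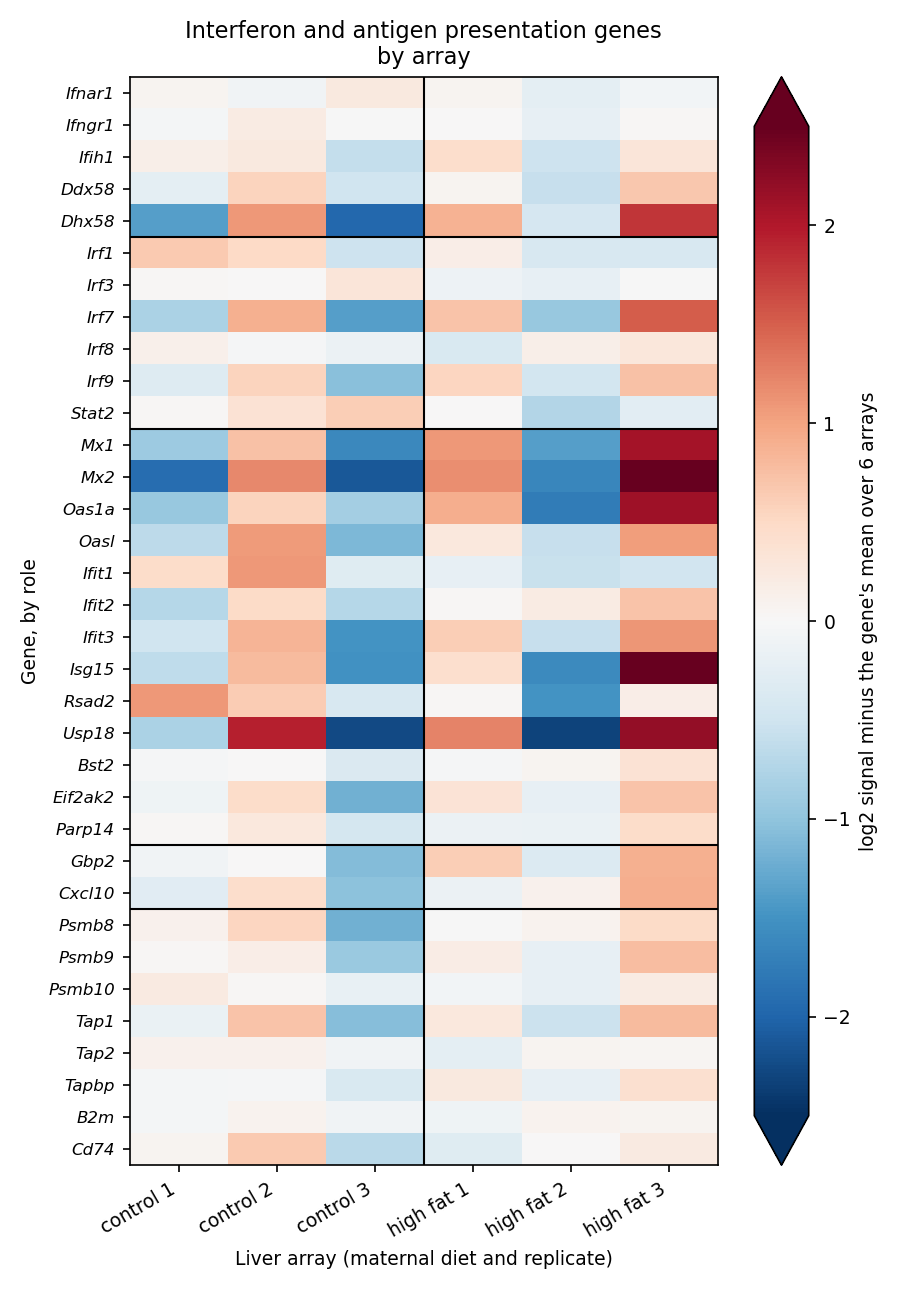
The heat map shows, for each of the 34 members tested (rows, grouped by role) and each array (columns), the log2 signal minus the gene's mean over the 6 arrays. High fat replicate 3 and control replicate 2 are mostly red, and control replicate 3 and high fat replicate 2 mostly blue. Stat2 and Ifit1 depart from that pattern, and Rsad2 follows it but is highest in control replicate 1.

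Several arrays stood apart in ways that touch these values. High fat replicate 3, the highest array for most members, differed in sex-linked transcripts: Xist was at 4.45 there and at 12.46 to 13.31 elsewhere, and Eif2s3y, of the Y chromosome, was at 11.14 there and at 3.99 or less elsewhere. The probe set named Uty, also a gene of the Y chromosome, did not follow Eif2s3y, at 10.26 there and 10.64 to 11.20 elsewhere. High fat replicate 1 had the trypsinogen Prss1 at 13.08 against 4.10 to 5.30 in the others. The difference between 3' and 5' control probe sets of beta-actin was highest in control replicate 3 (4.50) and lowest in high fat replicate 2 (3.18), and both of these arrays were low for most members; the others lay at 3.36 to 3.81. The 9 hepatocyte markers measured of 10, albumin among them, lay at list medians of -0.09 to 0.09 around their means. Their summed signal was 259717 to 264933 in controls and 236338 to 246426 in high fat pups, and Ass1, a urea cycle enzyme, was on the looser list (log2 change -0.63, limma adjusted p = 0.198). The part of any of these features in the results was not tested.

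The receptors had small differences between the diet means. Ifnar1, the signalling chain of the type I receptor, was at 7.68, 7.53 and 7.86 in controls and 7.67, 7.37 and 7.55 in high fat pups (log2 change -0.16, SE 0.15, adjusted p = 0.672). Its 6 probe sets differed in sign, from -0.16 to 0.26. Ifngr1, the ligand-binding chain for interferon gamma, was at 10.67, 10.92 and 10.71 against 10.73, 10.51 and 10.74 (-0.11, SE 0.14, adjusted p = 0.764). The probe sets used for both genes spanned under 0.5 log2 units over all arrays, and the groups overlapped; other Ifnar1 probe sets above the brightness limit spanned up to 1.30.

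The cytosolic RNA sensors varied more. Dhx58 (LGP2), a sensor that is itself induced by interferon, was at 5.80, 8.27 and 5.22 in controls and 8.05, 6.75 and 8.97 in high fat pups. Control replicate 2 lay above high fat replicates 1 and 2, so the groups overlapped, and the log2 change of 1.5 (SE 0.87, adjusted p = 0.492) was 0.89 without control replicate 3 and 2.42 without control replicate 2. A second probe set of Dhx58 gave 0.52, and another, below the brightness limit, -1.31. Ddx58 (RIG-I), listed as Rig1 in the annotation, was at 9.63, 10.43 and 9.39 against 9.95, 9.31 and 10.56. Ifih1 (MDA5) was at 7.38, 7.46 and 6.62 against 7.67, 6.70 and 7.52. Both sensors had differences under 0.15 between the diet means, with adjusted p of 0.920 and 0.880, and each took a negative value when control replicate 3 was left out (-0.10 and -0.12).

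The transcription factors fell into wide and narrow members. Irf7, which amplifies type I interferon production, had the widest span of them, 2.89 log2 units or 7.39-fold. It was at 8.15, 9.84 and 7.57 in controls and 9.66, 7.99 and 10.45 in high fat pups, so each diet held both high and low livers (log2 change 0.85, SE 0.77, adjusted p = 0.659; leaving out high fat replicate 3 or 2 gave 0.31 or 1.54). Irf9, the DNA-binding part of the type I factor, was at 8.71, 9.58 and 7.98 against 9.56, 8.56 and 9.76. It kept the array order of Irf7 within each diet, at a smaller span of 1.78 and a change of 0.54 (SE 0.47, adjusted p = 0.648). The change was 0.15 without control replicate 3 and 0.95 without control replicate 2. A second Irf9 probe set gave 0.16 and was highest in control replicate 2.

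Stat2, which belongs to the same factor, did not follow Irf9. Its signal was 10.40, 10.72 and 10.98 in controls (10.70 ± 0.29, SD, n = 3) and 10.37, 9.64 and 10.10 in high fat pups (10.04 ± 0.37, SD, n = 3). The groups did not overlap, by the margin between 10.37 in high fat replicate 1 and 10.40 in control replicate 1. The log2 change of -0.66 (SE 0.24, unadjusted p = 0.0273) did not pass adjustment (limma adjusted p = 0.299). A second Stat2 probe set gave -0.60, with controls at 9.81 to 10.37 and high fat pups at 9.06 to 9.78. Stat2 left the looser list without control replicate 2 or 3 and without high fat replicate 2 or 3. Ifit1 stayed on it only without control replicate 3, of the 6 arrays left out in turn, and without high fat replicate 3 no member was on it.

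Irf1, a factor of the interferon gamma response, was at 9.50, 9.35 and 8.33 in controls and 9.01, 8.45 and 8.44 in high fat pups (-0.43, SE 0.34, adjusted p = 0.618). Control replicate 3 was the lowest of all arrays here, and without it the change was -0.79 and the groups no longer overlapped. Irf3, which is present before infection and starts interferon transcription, was at 10.96, 10.95 and 11.23 against 10.80, 10.73 and 10.93. The Irf3 groups lay apart by a small margin, with a log2 change of -0.23 (SE 0.14, adjusted p = 0.510; -0.14 without control replicate 3). Irf8, a factor of macrophages and dendritic cells, was at 8.46, 8.31 and 8.20 against 7.96, 8.49 and 8.62, a change of 0.03 (SE 0.20, adjusted p = 0.965) whose sign turned when control replicate 3, high fat replicate 2 or high fat replicate 3 was left out.

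Antiviral effectors held the widest spans of the 36 genes. Of 13 tested, 11 had a higher and 2 a lower mean in high fat pups, and 0 passed the adjusted test. The median of their changes was 0.64, and leaving out control replicate 3 or high fat replicate 3 gave 0.14 or 0.08. For most effectors the lowest change came without one of these arrays, and the highest without control replicate 2 or high fat replicate 2. Their median span over the 6 arrays was 2.58 log2 units, against 0.66 over all genes. High fat replicate 3 was the highest array in 10 of the 13, and control replicate 3 or high fat replicate 2 the lowest in 7 and 5.

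Mx2, a dynamin-like GTPase that blocks viruses, had the largest span, 5.42 log2 units or 42.9-fold. A second Mx2 probe set, below the brightness limit, spanned 1.61 and gave a change of -0.76. The probe set used was at 6.30, 9.40 and 6.09 in controls and 9.38, 6.57 and 11.51 in high fat pups. High fat replicate 2 lay among the low controls and control replicate 2 at the level of high fat replicate 1, and the groups overlapped. The log2 change was 1.89 (SE 1.37, adjusted p = 0.589); leaving out high fat replicate 3 or 2 gave 0.71 or 3.18. Its paralog Mx1 was at 6.24, 7.87 and 5.54 against 8.23, 5.77 and 9.22 (1.19, SE 0.95, adjusted p = 0.624; 0.45 or 2.17 without the same arrays).

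Usp18, which removes Isg15 from proteins and dampens receptor signalling, was at 7.65, 10.38 and 6.18 in controls and 9.68, 6.12 and 10.65 in high fat pups. The lowest array of each diet lay at nearly the same signal, and the change of 0.74 (SE 1.41, adjusted p = 0.852) ranged from -0.20 without control replicate 3 to 2.09 without high fat replicate 2. Isg15, the ubiquitin-like protein itself, was at 8.23, 9.65 and 7.35 against 9.28, 7.27 and 11.41. Its change of 0.91 (SE 1.05, adjusted p = 0.737) was -0.14 without high fat replicate 3. Oas1a, which makes the activator of RNase L, was at 6.41, 7.92 and 6.51 against 8.27, 5.61 and 9.48, and its change of 0.84 (SE 0.95, adjusted p = 0.729) was -0.01 without that array.

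**Figure D3:**
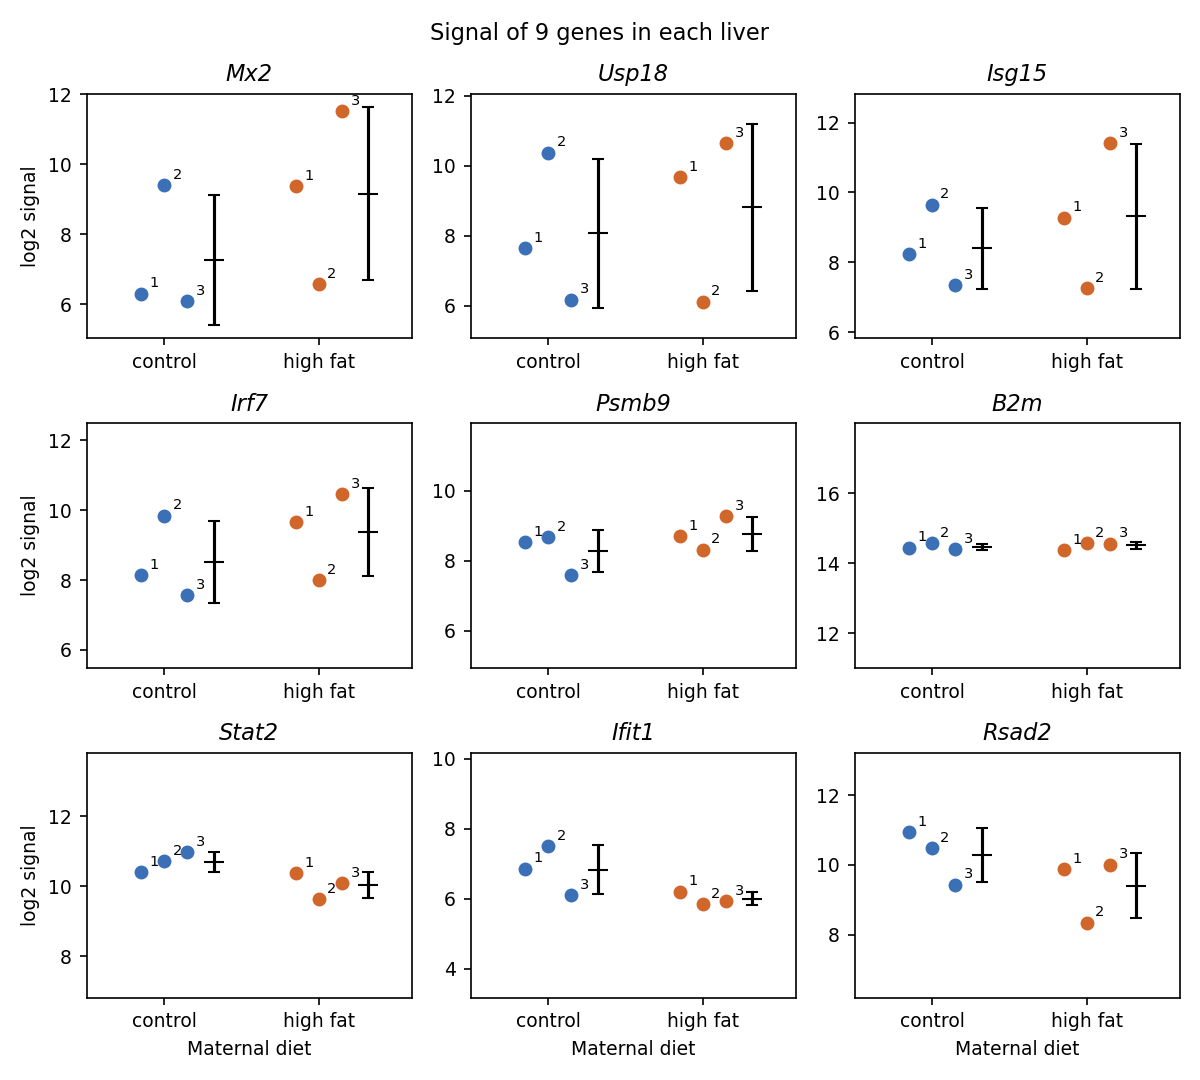
Each panel plots the log2 signal of a gene in each liver, controls in blue and high fat pups in orange, with replicate numbers beside the points; bars are mean ± SD of 3 arrays, and every panel has a y axis of the same length in log2 units. Mx2, Usp18, Isg15 and Irf7 show high and low livers in both diets, B2m is flat at 14.38 to 14.58, and Stat2 is lower in high fat pups without overlap.

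Oasl was at 7.05, 8.78 and 6.58 against 7.97, 7.13 and 8.76, and Ifit3 at 6.59, 7.94 and 5.59 against 7.70, 6.51 and 8.18; both genes kept the order just described. Ifit2 differed from Ifit3 in high fat replicate 2, with 9.31, 10.51 and 9.32 in controls and 10.06, 10.24 and 10.74 in high fat pups (0.64, SE 0.36, adjusted p = 0.482; 1.03 without control replicate 2). The Ifit proteins bind foreign RNA and block its translation. Eif2ak2 (PKR), the kinase that halts translation on sensing double-stranded RNA, spanned 1.91 log2 units, and the mono-ADP-ribosyltransferase gene Parp14 0.92. Bst2 (tetherin), which holds budding virus at the cell surface, spanned 0.72 and was at 12.66 to 13.02 in controls and 12.98 to 13.38 in high fat pups (0.26, SE 0.17, adjusted p = 0.552). None of these separated the diets.

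Ifit1 and Rsad2 went the other way. Ifit1 was at 6.86, 7.50 and 6.10 in controls (6.82 ± 0.70, SD, n = 3) and 6.20, 5.85 and 5.93 in high fat pups (5.99 ± 0.18, SD, n = 3). High fat replicate 3, the highest array for most effectors, was here below every control, and high fat replicate 1 lay just above control replicate 3. The log2 change was -0.82 (SE 0.34, unadjusted p = 0.0454, limma adjusted p = 0.346), and -0.48 without control replicate 2. Rsad2 (viperin), an antiviral radical SAM enzyme, was at 10.94, 10.48 and 9.44 against 9.88, 8.35 and 10.01, highest in control replicate 1 (-0.87, SE 0.54, adjusted p = 0.518; -0.34 without high fat replicate 2). Oas1b, a near copy of Oas1a, was dim, at 1.36, 4.50 and 3.95 against 4.65, 0.04 and 1.53, below the brightness limit, and it was tested only when no such limit was set, where Stat2 alone had an unadjusted p under 0.05. Mx, Oas and Ifit genes have close paralogs, and probe sets may pick up more than 1 of them.

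**Figure D4:**
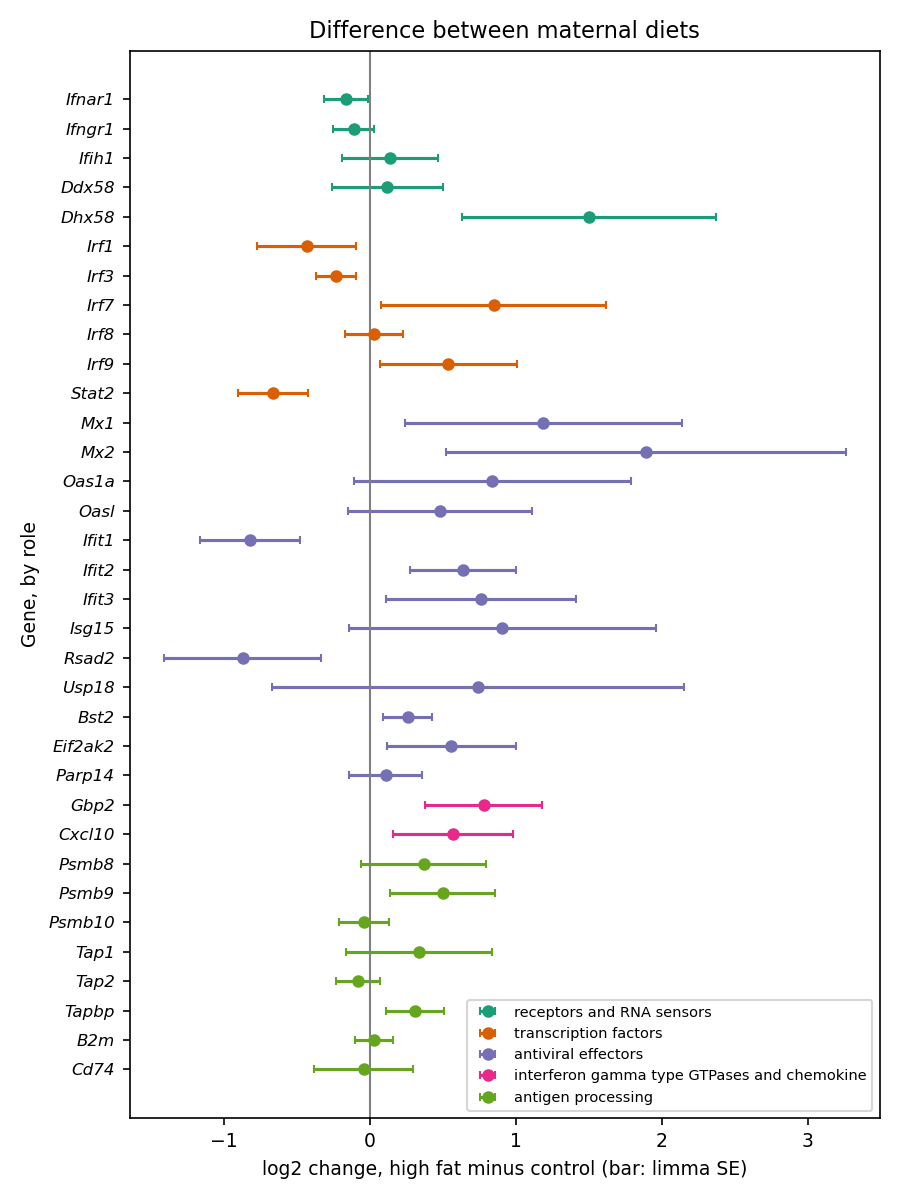
Points give the log2 change, high fat minus control, of each of the 34 members tested, coloured by role, and bars give limma's standard error. Most points lie right of 0 with long bars, widest for Usp18 (0.74, SE 1.41) and Mx2 (1.89, SE 1.37), and Stat2, Ifit1 and Rsad2 lie left of 0.

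Gbp2 and Cxcl10, which respond to interferon gamma, kept the array order in part. Gbp2, a GTPase that attacks vacuoles of intracellular microbes, was at 7.34, 7.43 and 6.35 in controls and 8.04, 7.09 and 8.32 in high fat pups. High fat replicate 2 alone lay within the control range (0.78, SE 0.40, adjusted p = 0.442; 1.14 without it). Cxcl10, a chemokine that draws activated T cells, was at 6.05, 6.76 and 5.31 against 6.18, 6.43 and 7.23 (0.57, SE 0.41, adjusted p = 0.589; 0.21 without control replicate 3 and 0.93 without control replicate 2).

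Antigen processing genes were steadier than the effectors. Of the 8, all tested, 5 had a higher and 3 a lower mean in high fat pups, with a median log2 change of 0.17 and a median span of 1.06. The median change was -0.12 without control replicate 3 and 0.02 without high fat replicate 3. Most of the 8 had their lowest change without one of these arrays, and their highest without control replicate 2 or high fat replicate 2. Psmb8 and Psmb9 replace proteasome subunits to form the immunoproteasome. Psmb8 was at 8.72, 9.14 and 7.42 in controls and 8.61, 8.69 and 9.09 in high fat pups, with control replicate 3 alone low, and its change of 0.37 (SE 0.43, adjusted p = 0.732) was -0.13 without that array. Psmb9 was at 8.54, 8.68 and 7.58 against 8.70, 8.32 and 9.28 (0.50, SE 0.36, adjusted p = 0.587; 0.15 without control replicate 3). Psmb10, another such subunit, spanned 0.42 in all (-0.04, SE 0.17).

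Tap1, which with Tap2 carries peptides into the endoplasmic reticulum, was at 7.38, 8.26 and 6.47 in controls and 7.80, 7.0 and 8.33 in high fat pups, a span of 1.86. Tap2 spanned 0.35, with 7.89, 7.89 and 7.69 against 7.54, 7.85 and 7.84. Tap1 thus spanned more than Tap2 between livers, and neither separated the diets (0.34, SE 0.50, adjusted p = 0.800 for Tap1; -0.08, SE 0.15, adjusted p = 0.836 for Tap2). Tap1 was highest in high fat replicate 3 and lowest in control replicate 3, as was Psmb9. Members on other chromosomes, Irf7 and Gbp2 among them, had the same highest and lowest arrays. A second Tap1 probe set, below the brightness limit, gave a change of -1.29. Tapbp (tapasin), which loads class I molecules, was at 8.12 to 8.47 in controls and 8.30 to 8.90 in high fat pups (0.31, SE 0.20, adjusted p = 0.532).

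B2m, the light chain of every class I molecule, was at 14.44, 14.57 and 14.41 against 14.38, 14.58 and 14.56, the smallest span of the 34 members at 0.20. That probe set lay near the top of the signal scale; a second, dimmer B2m probe set spanned 0.85 and was highest in high fat replicate 3 and lowest in control replicate 3 (log2 change 0.38). Cd74, the invariant chain of class II, was at 10.30, 10.89 and 9.55 in controls and 9.93, 10.24 and 10.46 in high fat pups. Its change of -0.04 (SE 0.34, adjusted p = 0.971) moved between -0.39 without control replicate 3 and 0.28 without control replicate 2.

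Of 131 other genes of the pathway, 94 had a probe set and 85 were tested. In limma 0 passed the adjusted threshold, and 9 had an unadjusted p under 0.05, where 14.0% of all genes do. The looser list held 2 of the 85, both higher, against 6.69% of all genes. In 9 of the 85 the groups did not overlap, against 20.8% of all genes, so none of these counts lay above the share over all genes. The median change was 0.08, and leaving out control replicate 3 or high fat replicate 3 gave -0.06 or -0.07. For most of these genes the lowest change came without one of these arrays. Genes for the interferons themselves gave no level above the brightness limit: Ifnb1 lay at 2.44 to 4.46, Ifng at 0 to 4.13 and Ifnk at 0.75 to 5.20, and the other ligands on the list were not analysed here.

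Ifi27l2b, an interferon-inducible gene of the Ifi27 family, had the smallest p of these. It was at 11.93, 12.21 and 11.05 in controls and 13.08, 12.84 and 13.96 in high fat pups, without overlap, 2.96-fold higher by the means (1.57, SE 0.39, unadjusted p = 0.00518, limma adjusted p = 0.206). The array order within each diet was the common order, yet high fat replicate 2 stayed above every control. Lgals3bp, a secreted galectin-binding glycoprotein, was at 8.22, 8.87 and 7.17 in controls and 9.38 ± 0.69 (SD, n = 3) in high fat pups, lowest at 8.63 in replicate 2 (1.29, SE 0.50, adjusted p = 0.329; 0.83 without control replicate 3). Slfn4 had the second widest span of the 85 genes tested, after RT1-CE10, with 9.06, 10.93 and 8.54 against 11.67, 9.49 and 12.44 (1.69, SE 0.88, adjusted p = 0.447; 2.55 without high fat replicate 2). Rtp4, Herc6, Zbp1 and Ifi44l, all interferon-induced, spanned 3.32, 3.33, 3.23 and 3.28 log2 units, each highest in high fat replicate 3 and lowest in control replicate 3.

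Signalling genes of the pathway were narrower, with a median span of 0.85 over 9 receptor chains, kinases and regulators. Ifnar2, the other chain of the type I receptor, was at 9.81 ± 0.22 (SD, n = 3) in controls and 9.92 ± 0.18 (SD, n = 3) in high fat pups (0.11, SE 0.17), and Ifngr2 at 8.47 to 9.49 against 9.30 to 9.64 (0.38, SE 0.27). Jak1 had a log2 change of -0.01 (SE 0.14), Jak2 of 0.16 (SE 0.19), Tyk2 of -0.35 (SE 0.15, adjusted p = 0.374) and Stat3 of -0.49 (SE 0.21, adjusted p = 0.354). Il10rb, a chain of the lambda interferon receptor, was at 9.42 to 9.78 in controls and 8.93 to 9.35 in high fat pups (-0.44, SE 0.17, adjusted p = 0.314). Irf2, which represses many Irf1 targets, was at 9.70 to 10.15 against 10.26 to 10.54 (0.44, SE 0.16, adjusted p = 0.310), and the adaptor Mavs at 8.88 to 9.43 against 8.55 to 8.84 (-0.44, SE 0.18, adjusted p = 0.345). The chemokine gene Cxcl11 was at 11.10 to 11.33 against 10.76 to 10.84 (-0.40, SE 0.12, adjusted p = 0.270). Groups did not overlap in Tyk2, Il10rb, Irf2, Mavs and Cxcl11, which are 5 of the 9 counted above beside 20.8% of all genes, and none of these passed adjustment.

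Class II genes, which mark antigen-presenting cells, had negative or near-zero differences. RT1-Bb was at 8.27, 7.93 and 7.92 in controls and 7.43, 7.71 and 7.68 in high fat pups, without overlap (-0.43, SE 0.16, adjusted p = 0.306). RT1-DMa, which helps load class II, had a change of -0.47 (SE 0.20, adjusted p = 0.352), RT1-Ba of -0.76 (SE 0.53; -0.20 without control replicate 1), RT1-Da of -0.09 (SE 0.32), RT1-Db1 of -0.04 (SE 0.24) and RT1-DMb of -0.10 (SE 0.29). Their regulator Ciita was at -0.04 (SE 0.18), and Nlrc5, the regulator of class I, at 0.02 (SE 0.29).

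Class I heavy chain genes of the rat RT1 region did not share an array order. RT1-S3 and RT1-T24-3 were highest in high fat replicate 3 and high in control replicate 2 and high fat replicate 1, as the effectors were: RT1-S3 was at 10.52, 11.45 and 10.08 against 12.30, 10.32 and 12.68. RT1-CE10 was at 6.55, 11.06 and 10.63 in controls and 10.83, 10.93 and 8.30 in high fat pups, low in control replicate 1 and high fat replicate 3 and spanning 4.51 log2 units. RT1-CE16 was at 7.68, 9.52 and 9.10 against 7.53, 9.35 and 8.01, low in the same arrays and in high fat replicate 1. These genes are near copies of each other and differ between haplotypes, their probe sets may cross-hybridise, and which gene a signal belongs to is uncertain.

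Markers of immune cells were read beside these genes, since in whole liver fewer cells of a type and less RNA per cell cannot be told apart. Of 16 Kupffer cell and macrophage markers, 13 were measured, and their summed linear signal was 28977 to 32808 in controls and 25378 to 32727 in high fat pups, with no marker at 0. In 3 of the 13, Cd14, Mrc1 and Cd163, high fat pups lay below every control, against 11.6% of all genes. None of the 3 passed adjustment in limma (smallest adjusted p 0.210). Of the 13, 5 had a higher and 8 a lower mean in high fat pups, with a median log2 change of -0.04. Around each gene's mean their list median was 0.13, 0.14 and -0.21 in controls and -0.05, -0.20 and 0.24 in high fat pups, lowest in control replicate 3 and high fat replicate 2. The antiviral effectors had medians of -0.63, 0.72 and -1.13 against 0.33, -0.58 and 1.05. Neutrophil and myeloid markers, 6 of 8 measured, summed to 664 to 1648 against 638 to 1480, with list medians of 0.37, 0.28 and -0.55 against 0.11, -0.75 and 0.57. T cell markers, all 10 measured, summed to 599 to 725 against 394 to 589, with 4 above the brightness limit, and were lowest in high fat replicate 3. Cytotoxic lymphocyte markers (9 of 9, 4 above the limit) summed to 744 to 1186 against 720 to 916, B cell markers (4 of 7, 2 above) to 224 to 363 against 374 to 462, and dendritic cell markers (5 of 9, 2 above) to 320 to 398 against 265 to 489. Both B cell markers above the limit were higher without overlap, Jchain (0.43, limma adjusted p = 0.349) and Pou2af1 (1.57, limma adjusted p = 0.293; 0.90 without control replicate 3). The other B cell markers measured, Cd79b (-0.26) and Ms4a1 (-0.16), lay below the limit and had lower means in high fat pups. Pou2af1 was also on the looser list, which holds 6.69% of all genes. Of the 4 cytotoxic markers above the limit, 1 had a higher and 3 a lower mean in high fat pups. Gzmk was lower without overlap (-0.50, limma adjusted p = 0.334). Gzmb, below the limit, was higher without overlap, at 0.84 to 3.71 in controls and 4.71 to 5.53 in high fat pups. Over all genes 20.8% do not overlap in either direction. Markers of the sinusoidal endothelium, 9 of 11 measured and none at 0, summed to 21170 to 24650 in controls and 12455 to 16100 in high fat pups. In 7 of the 9 the groups did not overlap, all lower, where 11.6% of all genes do so, and 0 passed the adjusted threshold in limma (7 at an unadjusted p under 0.05; smallest adjusted p 0.184). The part of these cells in the results, the lower Stat2 and Irf3 included, was not tested.

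**Figure D5:**
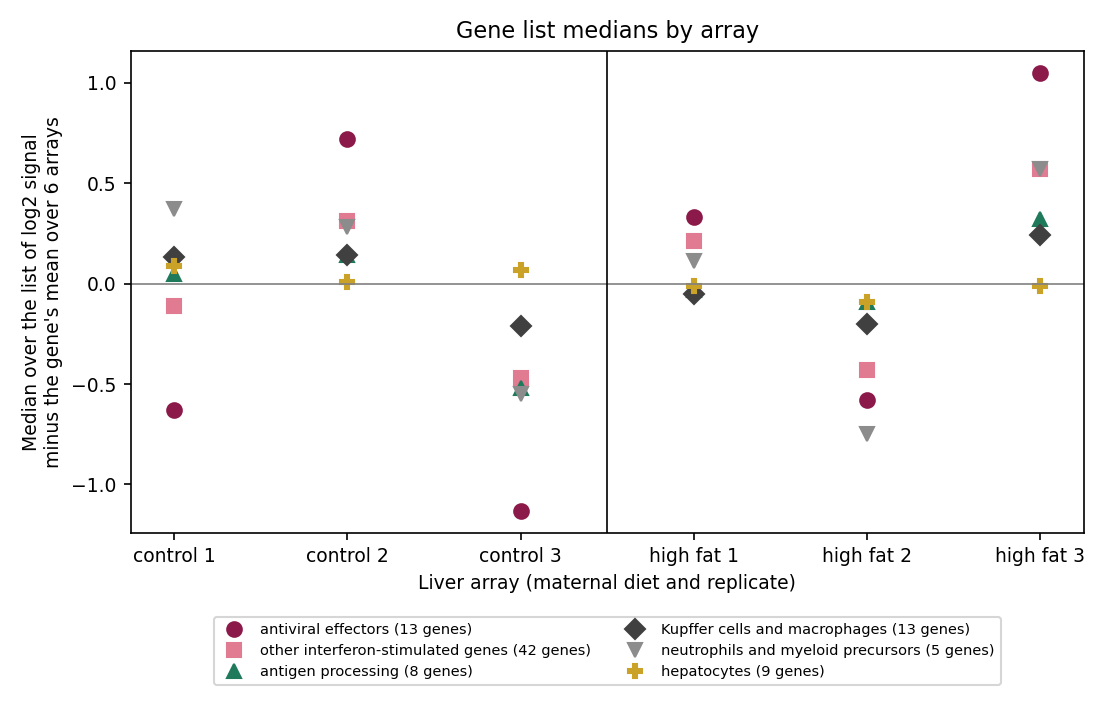
Each symbol is the median over a gene list, in each array, of log2 signal minus the gene's mean over the 6 arrays. Antiviral effectors run from -1.13 in control replicate 3 to 1.05 in high fat replicate 3, macrophage markers from -0.21 to 0.24, and hepatocyte markers stay within 0.09 of 0.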

How the data were processed

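Liver RNA from 6 rat pups was amplified and biotin-labelled with an Affymetrix kit that primes at the 3' end, per the labels' protocols. Deposited values are log2 signals per probe set; from the values, the authors scaled each array as a whole, since the 2% trimmed mean is 500.2 on every array once the logarithm is undone. Which software summarized the probes: not given in the sources used here. Array quartiles lay up to 0.22 apart, so values were quantile-normalized. The annotation gave 1 gene to 20826 of 31042 probe sets. A gene took its probe set with the highest mean over all arrays, and the lowest 40% of probe sets, below 5.83, were left out. The diet test used lmFit and eBayes (limma 3.58.1, R 4.3.3, 2-sided) with Benjamini-Hochberg adjustment over 10372 genes; every adjusted p is limma's. Members and lists were chosen with earlier results of these data known. All members are accounted for; other genes were named by smallest p, widest span or role. The procedure was tested on simulated data, with independent genes and SDs drawn at the level of all genes. The members' wider spread and shared array order were not simulated. Replicate numbers were not used as pairs in the main test, and the labels do not say whether they pair the samples. Deviations from the diet means correlated at -0.13, -0.13 and -0.14 for same-numbered arrays and at 0.04 to 0.08 for the others. Deviations of 3 arrays sum to 0 within a diet, so these values cannot decide pairing. With 1 array left out, normalization and probe sets were kept. Figures used matplotlib 3.10.9 in Python 3.11.15.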

Additional observations from a re-analysis of the deposited data

How the results depend on the processing

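In limma, 0 members passed the adjusted threshold under every alternative run, where unadjusted p under 0.05 gave 2 members in all arrays and 0 to 5 with 1 array left out. With the replicate number as a block, the smallest adjusted p of a member was 0.470, and the looser list again held Stat2 and Ifit1. Of all genes 0 passed in place of 4 (1102 in place of 1456 at an unadjusted p under 0.05). Each replicate number occurs once in each diet, so this block cannot alter the log2 changes, their signs and medians, or the overlap of the groups. The looser list held 1 member, Stat2, with no filter, with the lowest 20% left out, and with a trended robust prior, and 0 to 4 members with 1 array left out: Dhx58, Ifit2, Ifit3 and Cxcl10 without control replicate 2, Mx1, Mx2, Oas1a and Gbp2 without high fat replicate 2. Members without overlap numbered 2 to 8 with 1 array left out. Without control replicate 3 and high fat replicate 3 together there were 10, which is easier to reach with fewer arrays. Over most members these arrays were the lowest control and the highest high fat array, so leaving both out lowers most changes by construction. The reverse choice, control replicate 2 with high fat replicate 2, was not run, and no conclusion is drawn from the signs. With both arrays left out, 6 members were higher and 28 lower. The medians were -0.19 over members, -0.22 over effectors, -0.23 over antigen processing and -0.19 over other pathway genes. There the change turned negative for Ifih1 (-0.23), Ddx58 (-0.41), Irf7 (-0.17), Irf8 (-0.17), Irf9 (-0.09), Mx1 (-0.06), Oas1a (-0.22), Oasl (-0.37), Ifit3 (-0.16), Isg15 (-0.67), Usp18 (-1.12), Eif2ak2 (-0.12), Parp14 (-0.30), Cxcl10 (-0.10), Psmb8 (-0.28), Psmb9 (-0.10), Tap1 (-0.42) and B2m (-0.02). B2m was also at -0.05 with the values as deposited, and Ifnar1 at 0.0041 with its probe sets averaged. With 1 array left out, signs turned for Ifih1 (-0.12 to 0.44), Ddx58 (-0.19 to 0.43), Irf8 (-0.10 to 0.22), Oas1a (-0.01 to 1.93), Isg15 (-0.14 to 1.93), Usp18 (-0.20 to 2.09), Parp14 (-0.10 to 0.27), Psmb8 (-0.13 to 0.73), Psmb10 (-0.15 to 0.06), Tap1 (-0.11 to 0.79), Tap2 (-0.15 to 0.02), B2m (-0.0026 to 0.10) and Cd74 (-0.39 to 0.28). The cause was not tested. No detection calls were used, so dim signals have no lower bound, and 3 arrays per diet limit the precision.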
